A study of Homo sapiens with 18 samples.

Results

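Intraflagellar transport carries proteins along the microtubules of the cilium on trains built of 2 protein complexes. IFT122 and 9 other subunits of these complexes were followed here at the level of messenger RNA. Of the 10 genes, 6 encode subunits of IFT-A (IFT122, IFT140, IFT43, WDR19, WDR35 and TTC21B) and 4 encode subunits of IFT-B (IFT88, IFT172, IFT52 and IFT80), out of 58870 genes in the count table. They were taken by gene symbol, and all 10 passed the filter on low counts, as did 17743 genes in all. IFT122 itself was picked because it stood among the larger rises in these same libraries, so its response to the NRF1 guide is given as a description with no test. The other 9 genes were taken for their place in the complexes, with earlier results of these data known. A further 13 IFT-B genes were read as a separate list.

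RNA came from HEK293T cells, a human embryonic kidney line, in 6 groups of 3 libraries. Each group received 1 of 3 base editors, which join a deaminase to a Cas9 nickase and change single bases where a guide RNA directs them. In SaABE and SpABE the deaminase was ABE8e, which acts on adenine, fused to the nickase of Staphylococcus aureus in the first and of Streptococcus pyogenes in the second. SpCBE used evoCDA1, which acts on cytosine, with the S. pyogenes nickase. With each editor, the guide was directed either to a splice site of NRF1's exon 7, a factor that recognises GC-rich sites in promoters, or to an intergenic control site, and the intergenic guide of SaABE differed from the one shared by SpABE and SpCBE. In every group 750000 cells were transfected, selected in puromycin for 48 hours and lysed at 72 hours, so each library is a population after a short selection and not a clone.

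IFT-A and IFT-B assemble at the ciliary base. Kinesin-2 drives the trains towards the tip and dynein-2 brings them back. IFT-B carries structural cargo such as tubulin, whereas IFT-A, with the adaptor TULP3, takes membrane proteins into the cilium and is needed for the return journey. IFT122, IFT140 and WDR19 form the core of IFT-A, and WDR35, TTC21B and IFT43 lie at its periphery. IFT88 and IFT52 belong to the IFT-B1 subcomplex, and IFT172 and IFT80 belong to IFT-B2. Mutations in several of these genes cause skeletal and renal ciliopathies.

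Libraries held 28101094 to 40687447 estimated counts. Levels are given as CPM, counts scaled by TMM to a common library total, and a change is the log2 fold change of the NRF1 guide against the intergenic guide with its standard error. The message of NRF1 itself was 24.4 to 33.1 CPM in intergenic-guide libraries and 35.7 to 43.8 CPM in NRF1-guide libraries, a log2 change of 0.49 ± 0.04 (SE, 9 against 9 libraries, adjusted p = 3.61e-09). Counts per gene do not show which exons a message contains, so they do not check exon 7. The 6 markers fixed for HEK293T cells summed to 836 to 1010 CPM in single libraries, mostly from VIM (712 CPM on average), while PAX2 was at 2.04 CPM. The sums of 8 markers each were 1.43 to 3.17 CPM for multiciliated cells, 2.96 to 5.07 CPM for blood and 17.3 to 25.4 CPM for fibroblasts. The fibroblast sum came mostly from COL1A1 (18.8 CPM on average). In each of the last 3 lists at least 1 marker was at 0 in all 3 libraries of some groups (TEKT1, HBB, PTPRC, CD3E, LYZ, FAP or DCN). In bulk RNA, fewer cells expressing a gene and less RNA per cell cannot be told apart.

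Promoter sequences are shown for IFT122 and for 3 train and motor genes whose promoter window held the full NRF1 site and whose message is described most closely here. These 3 all fell with the NRF1 guide. HSPB11 (log2 change 0.02), DYNLL1 (0.12) and DYNLT1 (-0.305) also held the site and are not shown. The window ran from 250 bases before to 50 bases after the RefSeq start (GRCh38.p14), and 9 of the 10 members had one, all but WDR35. For IFT122 the 30 bases shown surround the letters GTTGCC, which are in capitals. They are part of the X-box that RFX factors bind in ciliary promoters, and a whole X-box was not searched for. In the other 3 sequences the capitals mark the full NRF1 site, searched on both strands as GCGC, any base and then TGCGC. For IFT172 and KIF3A the stretch shown lies in no annotated exon, and for TRAF3IP1 it is limited to 30 bases around the site. For IFT122, 0 of the 250 bases before the RefSeq start lay outside annotated exons.
IFT122 (chr3:129440200-129440229, plus strand): ccgcgcatgtacGTTGCCaggggtaacgca
IFT172 (chr2:27489806-27489993, minus strand): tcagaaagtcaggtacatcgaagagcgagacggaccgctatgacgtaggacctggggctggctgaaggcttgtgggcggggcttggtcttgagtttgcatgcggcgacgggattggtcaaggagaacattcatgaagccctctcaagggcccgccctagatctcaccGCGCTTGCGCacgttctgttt
KIF3A (chr5:132737639-132737796, minus strand): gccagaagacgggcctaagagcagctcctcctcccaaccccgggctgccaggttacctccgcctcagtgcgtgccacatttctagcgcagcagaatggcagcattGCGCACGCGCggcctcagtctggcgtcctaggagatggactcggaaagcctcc
TRAF3IP1 (chr2:238320482-238320511, plus strand): tgcggcggccGCGCAGGCGCtgtggtgggc

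Among the members, the full NRF1 site was found in IFT172 only, beginning 83 bases before the start. The 9 windows thus held 1 match, whereas 5.78% of 35116 RefSeq promoter windows of the same length held the site. The shorter letters TGCGCA, which can overlap the full site, were also found in IFT172 only among the members and in 8.24% of all windows. GTTGCC lay 12 bases before the start of IFT122 and 17 bases after that of IFT88, and 12.2% of all windows held it. CCAAT, the letters bound by NFY, was found in 6 of the 9 windows and in 34.6% of all windows, with 2 copies in IFT122 at 200 and 151 bases before the start. These matches are letters in a window and no evidence of binding.

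IFT122 (chr3:129429607-129520510, plus strand, GENCODE 44) stood apart from the rest of the complexes. With SaABE its level was 19.0, 18.3 and 19.2 CPM in the 3 intergenic-guide libraries and 40.4, 42.3 and 42.2 CPM in the 3 NRF1-guide libraries. With SpABE the values were 20.4, 20.8 and 20.8 CPM against 42.7, 42.4 and 42.6 CPM. With SpCBE they were 23.6, 23.2 and 21.5 CPM against 44, 46.3 and 44.9 CPM. The 2 guides did not overlap in any editor or across editors. How many of all genes tested separated by guide in this way was not counted, here or for the genes below. Over the 3 editors the fold was 2.07 (log2 1.05 ± 0.03 SE), and by editor the log2 change was 1.14 ± 0.04 for SaABE, 1.04 ± 0.04 for SpABE and 0.98 ± 0.04 for SpCBE. Of all genes tested, 1.13% passed the adjusted p and a log2 change over 0.5 upwards. The plot of members by library shows IFT122 beside its partners.

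**Figure D1:**
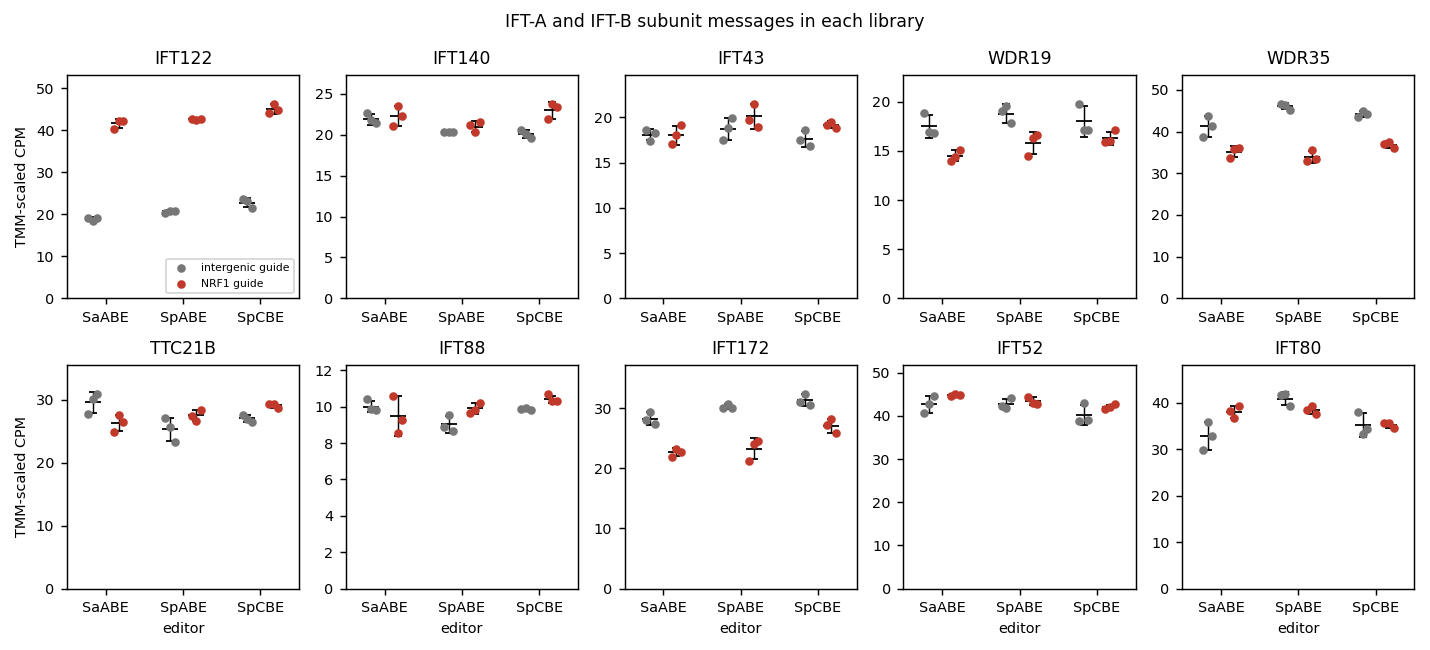
TMM-scaled CPM of the 10 IFT genes in each of the 18 libraries, grouped by editor, with grey points for the intergenic guide and red points for the NRF1 guide, and black bars for the mean ± SD of 3 libraries. IFT122 lies at 18.3 to 23.6 CPM with the intergenic guide and 40.4 to 46.3 CPM with the NRF1 guide, while WDR35, IFT172 and WDR19 have lower values with the NRF1 guide for each editor.

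The other 5 IFT-A genes did not follow IFT122. Over the 3 editors, 39.4% of all genes tested passed an adjusted p of 0.05 (20.6% higher, 18.8% lower). Against that background, 4 of the 9 members other than IFT122 passed, 1 higher and 3 lower. None of the 9 reached the log2 change of 0.5 that 5.5% of all genes tested passed together with the adjusted p. Their changes ran from -0.31 to 0.09 with a median of 0.03, beside a median of 0.01 over all genes tested.

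WDR35 (chr2:19910263-19990105, minus strand), a peripheral IFT-A subunit needed for ciliary membrane cargo, fell with each editor. Its level was 38.8, 43.8 and 41.4 CPM with SaABE and the intergenic guide and 33.7, 35.9 and 36.0 CPM with the NRF1 guide. With SpABE it was 46.7, 46.5 and 45.3 CPM against 32.9, 35.5 and 33.4 CPM. With SpCBE it was 43.5, 44.9 and 44.2 CPM against 37.1, 37.6 and 36.0 CPM. The highest of the 9 NRF1-guide values was below the lowest of the 9 controls. Over the 3 editors the log2 change was -0.31 ± 0.03 (adjusted p = 2.53e-08), a fold of 0.8.

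WDR19 (chr4:39182504-39285810, plus strand), a core subunit that binds IFT140, also fell. With SaABE its level was 18.9, 16.9 and 16.8 CPM against 14, 14.4 and 15.1 CPM, and with SpABE it was 19.1, 19.6 and 17.8 CPM against 14.5, 16.3 and 16.6 CPM. With SpCBE it was 19.8, 17.1 and 17.1 CPM against 15.9, 16.0 and 17.1 CPM. The groups did not overlap within any editor, although with SpCBE the nearest values differed by less than the rounding, and they overlapped across editors. Over the 3 editors the change was -0.22 ± 0.04 (adjusted p = 0.000163), and with SpCBE alone it was -0.14 ± 0.07 (adjusted p = 0.148).

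IFT140, IFT43 and TTC21B lay close to their control levels over the 3 editors. IFT140, a core subunit, ranged from 19.6 to 22.7 CPM in intergenic-guide libraries and from 20.3 to 23.8 CPM in NRF1-guide libraries. Its rise of 0.09 ± 0.03 (adjusted p = 0.0331) was the smallest that passed among the members, and it was lost with the replicate block (adjusted p = 0.0843) and when any of 6 single libraries was left out. It came mainly from SpCBE, where the change was 0.20 ± 0.05 (adjusted p = 0.00441), beside 0.02 ± 0.05 and 0.05 ± 0.05 with SaABE and SpABE, although the test of the difference between SaABE and SpCBE gave an adjusted p of 0.186. IFT43, the smallest subunit, changed by 0.07 ± 0.04 (adjusted p = 0.129) and TTC21B, a peripheral subunit, by 0.02 ± 0.04 (adjusted p = 0.719). IFT43 shares 52944 bases of its span with TTLL5 on the same strand, and reads of the shared part may be split between them.

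The balance of IFT-A messages is given as a description with no test. IFT122 was picked for its rise in these same libraries, and a higher ratio follows from that choice. IFT122 came to 0.147 ± 0.005 of the summed CPM of the other 5 subunits in the SaABE intergenic group, 0.160 ± 0.004 with SpABE and 0.180 ± 0.005 with SpCBE (SD, n = 3). In the NRF1-guide groups it was 0.358 ± 0.006, 0.360 ± 0.008 and 0.362 ± 0.005. The 3 control ratios differed from each other by more than 1 SD, whereas the 3 NRF1-guide ratios lay within 1 SD of each other. The summed level of the other 5 subunits was 127 to 129 CPM in the control groups and 116 to 124 CPM in the NRF1-guide groups.

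In IFT-B, IFT172 (chr2:27444377-27489805, minus strand) was the member that fell. It encodes the largest IFT-B2 subunit, which takes part in the turnaround of trains at the ciliary tip, and its promoter is the one member sequence above with an NRF1 site. With SaABE its level was 28, 29.4 and 27.4 CPM against 21.9, 23.3 and 22.8 CPM with the NRF1 guide. With SpABE it was 30.1, 30.7 and 30.1 CPM against 21.2, 24.0 and 24.5 CPM. With SpCBE it was 31.1, 32.4 and 30.5 CPM against 27.3, 28.2 and 25.9 CPM. Within each editor the groups were apart, while the highest SpCBE value with the NRF1 guide exceeded the lowest SaABE control. The log2 change was -0.30 ± 0.03 over the 3 editors (adjusted p = 7.5e-08), with -0.32 ± 0.05, -0.38 ± 0.05 and -0.21 ± 0.05 for SaABE, SpABE and SpCBE.

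IFT88, IFT52 and IFT80 did not pass over the 3 editors. IFT88, a scaffold of IFT-B1, ranged from 8.64 to 10.4 CPM in the controls and from 8.53 to 10.7 CPM with the NRF1 guide (0.05 ± 0.05, adjusted p = 0.442). IFT52, which IFT88 binds in the IFT-B1 core, ranged from 38.8 to 44.7 CPM and from 41.7 to 45.1 CPM (0.05 ± 0.03, adjusted p = 0.109), and it passed at an adjusted p of 0.0359 when the second SpCBE intergenic library was left out. IFT80 changed by 0.03 ± 0.04 (adjusted p = 0.55), a mean over editors that disagreed, as described next. IFT80 lies within the longer gene AC079594.2 on the same strand for 142895 bases, and shared reads are uncertain.

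**Figure D2:**
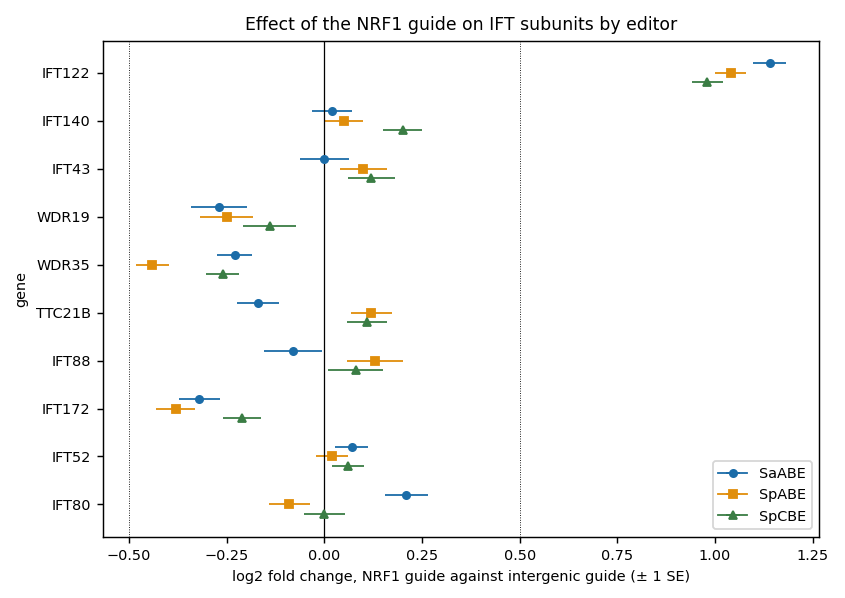
Log2 fold change of the NRF1 guide against the intergenic guide for each IFT gene and editor (circles SaABE, squares SpABE, triangles SpCBE), with bars of 1 standard error and dotted lines at -0.5 and 0.5. IFT122 lies at 0.98 to 1.14, WDR35 at -0.44 to -0.23, IFT172 at -0.38 to -0.21, and IFT80 and TTC21B spread to both sides of 0.

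The editors were compared next. Single editors passed 32.4% (SaABE), 32.6% (SpABE) and 23.1% (SpCBE) of all genes tested, and among the 9 members 5, 3 and 3. WDR35 and IFT172 passed with each editor. With SaABE alone, TTC21B fell by 0.17 ± 0.05 on the log2 scale (adjusted p = 0.0164) and IFT80 rose by 0.21 ± 0.06 (adjusted p = 0.00461). The TTC21B call with SaABE was lost without the first NRF1-guide library (adjusted p = 0.0981) or the third intergenic-guide library (adjusted p = 0.091). With SpABE the same genes moved by 0.12 ± 0.05 (adjusted p = 0.0864) and -0.09 ± 0.05 (adjusted p = 0.18), and TTC21B with SpABE passed without the first intergenic-guide library (adjusted p = 0.0281).

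The differences between editors' effects were tested directly. The paper describes separate editor plasmids against the splice donor or acceptor site of exon 7. Where NRF1 guide or splice site differed, their effect and that of the editor cannot be told apart. Between SaABE and SpABE, 11.7% of all genes tested passed, and 3 of the 9 members did. IFT80 differed by 0.31 ± 0.08 (adjusted p = 0.0101), TTC21B by -0.29 ± 0.07 (adjusted p = 0.0129) and WDR35, which fell further with SpABE (-0.44 ± 0.04) than with SaABE (-0.23 ± 0.04), by 0.21 ± 0.06 (adjusted p = 0.025). The WDR35 call was lost when any of 7 single libraries was left out (adjusted p 0.0507 to 0.0753). Between SaABE and SpCBE, 4.09% of all genes passed, and of the members TTC21B did (-0.28 ± 0.07, adjusted p = 0.033). This call was lost with the replicate block (adjusted p = 0.0523) and when any of 6 single libraries was left out (adjusted p 0.0565 to 0.1). Between SpABE and SpCBE, 8.96% of all genes passed and 0 of the 9 members did by edgeR or by DESeq2, while 3 of them had an unadjusted edgeR p under 0.05, the nearest being WDR35 (-0.18 ± 0.06, adjusted p = 0.0552). The effect on IFT122 differed between editors by 0.10 ± 0.06 (SaABE minus SpABE), 0.16 ± 0.06 (SaABE minus SpCBE) and 0.06 ± 0.06 (SpABE minus SpCBE), given without a test.

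The levels behind these differences were as follows. TTC21B stood at 27.7, 30.1 and 30.9 CPM in the SaABE intergenic libraries and at 24.9, 27.5 and 26.4 CPM in the SaABE NRF1-guide libraries. In SpABE it was 27.0, 25.7 and 23.3 CPM against 27.4, 26.6 and 28.4 CPM, so the order was turned and the groups overlapped. IFT80 stood at 29.9, 35.9 and 32.9 CPM against 38.3, 36.8 and 39.3 CPM in SaABE, and at 41.6, 41.9 and 39.4 CPM against 38.4, 39.2 and 37.6 CPM in SpABE. For both genes the intergenic groups of the 2 editors lay apart, and the NRF1-guide groups of the 2 editors overlapped.

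Intergenic-guide libraries were also compared between editors, a contrast that did not choose IFT122. IFT122 was lowest with SaABE (18.8 ± 0.5 CPM, SD, n = 3), higher with SpABE (20.7 ± 0.2 CPM) and highest with SpCBE (22.8 ± 1.1 CPM). The log2 difference was -0.28 ± 0.05 for SaABE minus SpCBE (adjusted p = 2.51e-05), -0.14 ± 0.05 for SaABE minus SpABE (adjusted p = 0.0212) and -0.14 ± 0.04 for SpABE minus SpCBE (adjusted p = 0.0127). The last 2 were lost when the intergenic-guide libraries were fitted alone (adjusted p = 0.0631 and 0.0564). The neighbouring steps of this order are therefore uncertain, while the ends differed in every fit made. SaABE also used another intergenic guide, and the guide and the nickase cannot be told apart there.

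Other members differed among controls as well. Between SaABE and SpABE controls, 38.4% of all genes and 4 of the 10 members passed. IFT80 was lower with SaABE by 0.31 on the log2 scale (-0.31 ± 0.05, adjusted p = 5.48e-05), WDR35 was lower too (-0.16 ± 0.04, adjusted p = 0.00411) and TTC21B was higher (0.22 ± 0.05, adjusted p = 0.00146). Between SaABE and SpCBE controls, 40.6% of all genes and 4 members passed. Besides IFT122 these were IFT172 (-0.15 ± 0.05, adjusted p = 0.0179), IFT140 (0.13 ± 0.05, adjusted p = 0.0442) and TTC21B (0.13 ± 0.05, adjusted p = 0.0451). The calls of IFT140 and TTC21B were lost with the replicate block (adjusted p = 0.0513 and 0.0538). They were also lost by DESeq2 (adjusted p = 0.0947 and 0.0655) and without the filter on low counts (adjusted p = 0.18 and 0.0918). The IFT172 call was lost without the third SaABE intergenic library (adjusted p = 0.0847) or the second SpCBE intergenic library (adjusted p = 0.0942). Between SpABE and SpCBE controls, 35.5% of all genes passed, and so did IFT122 and IFT80 (0.22 ± 0.05, adjusted p = 0.00208). The comparisons of effects and those of controls share the intergenic-guide libraries.

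Levels of different members were compared per kilobase of annotated exon, since a longer message yields more fragments. Over the 9 intergenic-guide libraries, per-kilobase levels by union exon length were 16.5 ± 0.8 for IFT52, 5.62 ± 0.32 for WDR35, 5.14 ± 0.58 for IFT80 and 4.35 ± 0.23 for IFT43. The remaining 6 lay lower, with 2.56 ± 0.12 for IFT140, 2.06 ± 0.14 for WDR19, 1.88 ± 0.10 for IFT172, 1.59 ± 0.09 for IFT88, 0.881 ± 0.077 for IFT122 and 0.807 ± 0.067 for TTC21B (CPM per kilobase, SD, n = 9). The neighbours WDR35 and IFT80, and IFT122 and TTC21B, differed by less than the larger SD of each pair. With the NRF1 guide IFT122 reached 1.83 ± 0.07 CPM per kilobase, above IFT88 (1.64 ± 0.12) and near WDR19 (1.77 ± 0.12). The union length of IFT122 counts 23567 bases, against 4860 bases for its longest transcript, so its place in this order depends on the length used. By longest transcript its control level was 4.27 ± 0.37 CPM per kilobase, beside 4.12 ± 0.28 for WDR19 and 3.97 ± 0.19 for IFT140, and it was 8.86 ± 0.36 with the NRF1 guide.

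IFT122 and MBD4, a DNA glycosylase that removes thymine and uracil from mismatches at CpG sites, lie head to head. Their RefSeq starts, at 129440224 and 129439948 on chromosome 3, are 276 bases apart on opposite strands. With SaABE, MBD4 was at 27.6, 29.0 and 28.1 CPM with the intergenic guide and at 21.8, 19.5 and 21.3 CPM with the NRF1 guide. With SpABE it was 33.5, 33.0 and 33.0 CPM against 25.1, 24.7 and 24.1 CPM, and with SpCBE it was 29.8, 30.3 and 30.3 CPM against 24.1, 24.6 and 25.4 CPM. All 9 NRF1-guide libraries lay below all 9 controls, as they also did for KIFAP3, DYNLT1, TUB and RFX7 among other named genes. MBD4 fell by 0.38 ± 0.03 on the log2 scale over the 3 editors (adjusted p = 1.07e-10), and by 0.43 ± 0.04, 0.43 ± 0.04 and 0.29 ± 0.04 with SaABE, SpABE and SpCBE.

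The ratio of IFT122 to MBD4 was 0.667 ± 0.032, 0.624 ± 0.012 and 0.756 ± 0.042 in the SaABE, SpABE and SpCBE controls. With the NRF1 guide it was 2.0 ± 0.16, 1.73 ± 0.03 and 1.83 ± 0.06 (SD, n = 3). This ratio is a description too, since IFT122 was picked for its rise. IFT122 transcripts in GENCODE 44 begin upstream of the RefSeq start, and the 2 gene spans share 9233 bases on opposite strands. The libraries were stranded, but the strand setting of the counting is not given in the sources used here, and reads of the shared span could have been placed in either gene.

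**Figure D3:**
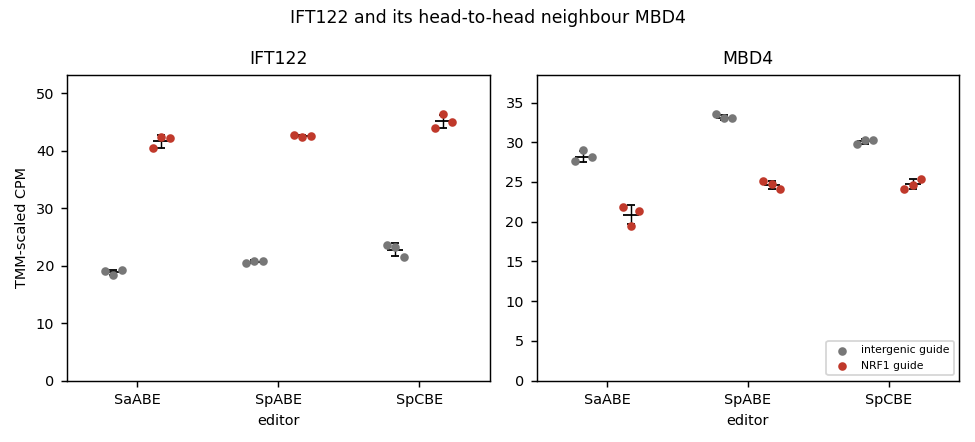
TMM-scaled CPM of IFT122 and MBD4 in each library by editor, grey for the intergenic guide and red for the NRF1 guide, with the mean ± SD of 3 libraries in black. IFT122 lies at 40.4 to 46.3 CPM with the NRF1 guide against 18.3 to 23.6 CPM in controls, and MBD4 at 19.5 to 25.4 CPM against 27.6 to 33.5 CPM.

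Other neighbours that begin within 1000 bases of a member on the other strand were read in the same way. EFCAB12 begins 971 bases from the GENCODE start of IFT122, which lies upstream of the RefSeq start used for MBD4. EFCAB12 was at 0.791 CPM on average and changed by -0.32 ± 0.16 over the 3 editors (adjusted p = 0.126). With SaABE it fell by 0.89 ± 0.31 (adjusted p = 0.0306). CRAMP1, opposite IFT140, changed by 0.09 ± 0.03 (adjusted p = 0.0379), a call lost with the replicate block (adjusted p = 0.0733). SMC4, a condensin subunit opposite IFT80, changed by -0.01 ± 0.03 over the 3 editors (adjusted p = 0.779). By editor it moved by 0.10 ± 0.04 with SaABE (adjusted p = 0.0547) and fell by 0.16 ± 0.04 with SpABE (adjusted p = 0.00189), a difference of 0.26 ± 0.05 (adjusted p = 0.00275) in the same direction as that of IFT80. The spans of IFT80 and SMC4 share 607 bases. The non-coding neighbours of WDR19, WDR35, IFT88 and IFT52 were below 0.2 CPM and were not tested.

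The rest of the transport machinery was read from 8 lists of 72 tested genes. Of these 16 were higher and 14 lower at an adjusted p of 0.05, close to the shares of all genes, none passed the fold threshold upwards (the highest was BBIP1 at 0.23) and 4 passed it downwards (KIF3A, TCTEX1D2, TRAF3IP1 and BBS2), as 4.37% of all genes did. The median change was 0.02.

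Kinesin-2, the motor of outward transport, had 4 of 5 genes lower (18.8% of all genes tested were), 3 when the model left out the editor term that takes up level differences between editors, and the fifth, KIF3C, was at 0.04 ± 0.03 (adjusted p = 0.406). KIF3A, a motor subunit of the heterotrimeric kinesin, was at 49.6, 46.6 and 46.4 CPM against 18.2, 17 and 19.2 CPM with SaABE. It was at 50.1, 44.8 and 42.4 CPM against 18.9, 20.1 and 19.1 CPM with SpABE, and at 52.3, 44 and 47.6 CPM against 20.4, 21.2 and 20.1 CPM with SpCBE. The 18 libraries separated fully by guide, with a fold of 0.41 (-1.28 ± 0.04, adjusted p = 3.24e-18). KIFAP3, its accessory subunit, fell by 0.45 ± 0.03 (adjusted p = 2.22e-12), and KIF17, the homodimeric motor, by 0.33 ± 0.05 (adjusted p = 2.11e-06). KIF3B, the other motor subunit, fell by 0.07 ± 0.02 (adjusted p = 0.0145).

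Dynein-2, the return motor, had 4 genes higher and 4 lower of 10, beside 20.6% and 18.8% of all genes tested. Without the editor term 1 was higher and 4 were lower. TCTEX1D2, a light chain, fell by 0.77 ± 0.07 (adjusted p = 1.39e-09), with values of 5.87 to 8.32 CPM in controls and 2.87 to 4.71 CPM with the NRF1 guide. It overlaps read-through genes on the same strand, and its count is uncertain. WDR60, an intermediate chain, fell by 0.33 ± 0.04 (adjusted p = 8.18e-07) and DYNLT1, a light chain shared with cytoplasmic dynein, by 0.31 ± 0.02 (adjusted p = 3.77e-10). The rises in this list, from 0.10 to 0.17, stayed under the fold threshold.

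Of 13 further IFT-B genes, 4 were higher and 2 lower, beside the same shares of all genes tested. Without the editor term 0 were higher and 1 was lower, and TTC30A and IFT20 lost their calls (adjusted p = 0.0752 and 0.0599). TRAF3IP1, the IFT-B2 subunit that binds tubulin and IFT20, ranged from 37.3 to 46.5 CPM in controls and from 24.1 to 29.0 CPM with the NRF1 guide, and fell by 0.64 ± 0.03 (adjusted p = 3.97e-14). TTC30A fell by 0.27 ± 0.05 (adjusted p = 0.000336), and reads may be shared with its near-identical paralog TTC30B. IFT20, which links the complex to the Golgi, rose by 0.15 ± 0.03 (adjusted p = 0.000523). IFT172 and TRAF3IP1, with the sites printed above, were both lower, while HSPB11, a further IFT-B subunit whose window held the site, was at 0.02 ± 0.03 (adjusted p = 0.578). In the 8 lists 7 of 61 genes with a promoter window (11.5%) held the site, beside 5.78% of all RefSeq windows. These were KIF3A, TRAF3IP1, DYNLT1, HSPB11, DYNLL1, TULP3 and KIF2A. Of these 7, 3 were lower (KIF3A, TRAF3IP1 and DYNLT1), DYNLL1 was higher (0.12 ± 0.02, adjusted p = 8.59e-05) and 3 did not pass. Of all genes tested, 18.8% were lower and 20.6% higher. The lists were chosen with earlier results known, and a link between site and change was not tested.

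The remaining lists cover genes around the trains, and their counts stand beside 20.6% higher and 18.8% lower of all genes tested. In the BBSome list, a coat that trains carry through the cilium, 3 of 11 genes were higher and 2 lower, led by BBS2 at -2.34 ± 0.05 (adjusted p = 3.92e-20), the largest change in the 8 lists. Of 8 genes for the IFT-A adaptor and its cargo, TUB, a relative of TULP3, was the one that passed, with a fall of 0.20 ± 0.03 (adjusted p = 7.5e-07), and TULP3 itself was at -0.07 ± 0.04 (adjusted p = 0.172). Of 7 Hedgehog genes, whose signalling depends on IFT-A, PTCH1 (0.09 ± 0.03, adjusted p = 0.0194) and SUFU (0.08 ± 0.02, adjusted p = 0.0156) were higher, and both were lost without the filter on low counts (adjusted p = 0.0524 and 0.0673) and without the editor term (adjusted p = 0.436 and 0.0972). Among ciliary transcription factors, 8 of 9 were tested. RFX7 fell by 0.36 ± 0.03 (adjusted p = 3e-09) and RFX2 rose by 0.18 ± 0.04 (adjusted p = 0.000917). Of 10 genes for cilium disassembly and the basal body, NEK2 (0.06 ± 0.02, adjusted p = 0.0346) and CEP97 (0.07 ± 0.03, adjusted p = 0.0372) were higher, and both were lost with the replicate block (adjusted p = 0.0888 and 0.0651) and without the editor term (adjusted p = 0.585 and 0.532).

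**Figure D4:**
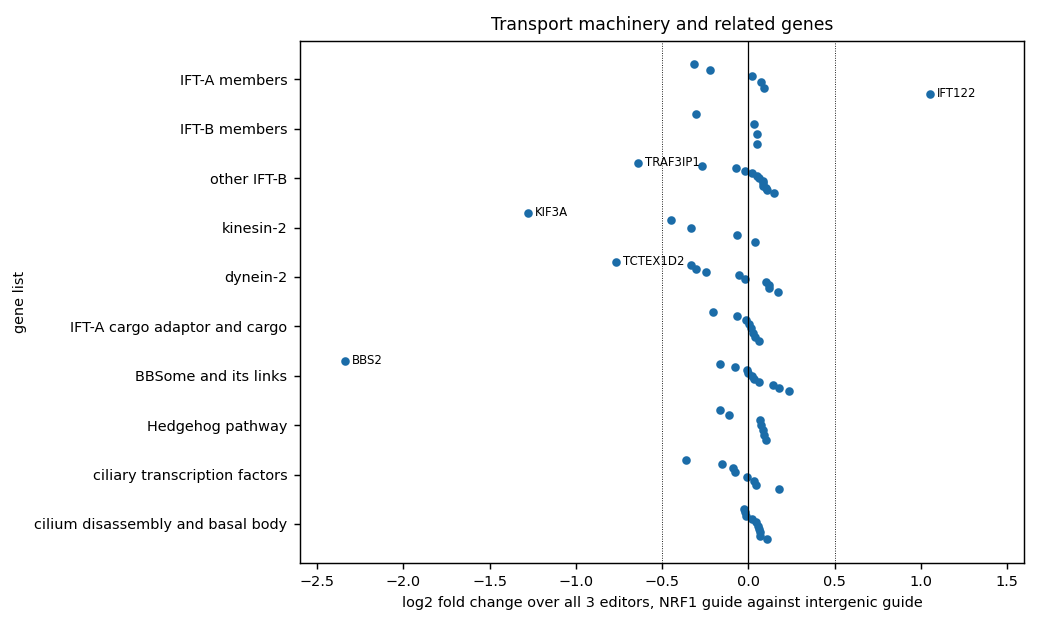
Log2 fold change of the NRF1 guide against the intergenic guide over all 3 editors for each tested gene (point) of the member lists and of 8 related lists (rows), with dotted lines at -0.5 and 0.5 and names for genes beyond them. IFT122 is the one gene above 0.5, and KIF3A, TCTEX1D2, TRAF3IP1 and BBS2 lie below -0.5.

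Among 11153 tested genes with a mean of at least 5 CPM, those whose log2 CPM followed IFT122 most closely over the 18 libraries were KDM8 (Pearson r = 0.982), BTD (0.980), INO80C (0.979), TCEANC (0.974) and MRPL54 (0.971). The most opposite were SBF2 (-0.995), VASH1 (-0.993) and ALG8 (-0.992). IFT122 levels form 2 clusters by guide, which separate all 8 of these genes as well. Within a guide the likeness was kept by some of these genes only. In the 9 controls r with IFT122 was 0.095 for KDM8, 0.295 for BTD, 0.144 for INO80C, 0.501 for TCEANC and -0.360 for MRPL54. In the 9 NRF1-guide libraries it was 0.552, -0.234, -0.012, 0.875 and -0.439 in the same order, so BTD and INO80C turned sign and MRPL54 was negative in both. Of the opposite genes, SBF2, VASH1 and ALG8 had r of -0.946, -0.963 and -0.909 in controls and -0.733, -0.267 and 0.266 with the NRF1 guide. By Spearman's rank correlation none of the 5 leading genes remained among the leading 5, and none of the 3 opposite genes among the opposite 3.

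Among the members, IFT172 had r = 0.817 with IFT122 within controls and 0.840 within NRF1-guide libraries, although it moved the other way between guides (r = -0.747 over all 18). WDR35 had r = 0.405 and 0.659 within the 2 guides and -0.860 over all 18, and WDR19 had 0.270, 0.635 and -0.715. Others went the other way or turned between guides. IFT52 was negative in both (-0.429 in controls and -0.751 with the NRF1 guide). IFT140 went from -0.717 to 0.607, TTC21B from -0.434 to 0.871 and IFT80 from 0.234 to -0.754. IFT43 (-0.041 and 0.377) and IFT88 (-0.058 and 0.246) stayed nearer to 0. These are descriptions over libraries that share editors and scaling.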

How the data were processed

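Polyadenylated RNA of 18 HEK293T libraries (6 groups of 3) was sequenced after a stranded library preparation. Reads were trimmed by the authors (Cutadapt 1.18) and aligned by STAR 2.7.0f to hg38 and GENCODE annotation. DESeq2 1.46.0 is also named in the submitters' processing notes. How reads were counted (program, strand, multiple matches) is not given in the sources used here. The authors deposited estimated counts without normalization. Of nonzero values 19.63% were not whole (tolerance 1e-06), so all were rounded, although the test design had assumed whole counts. Its other 18 sample columns were not used. GENCODE 44 held 58517 of 58870 identifiers.

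Genes were filtered by filterByExpr (17743 kept), scaled by TMM and tested by edgeR 4.0.16 quasi-likelihood fits under R 4.3.3, adjusted by Benjamini-Hochberg over all genes tested. The comparison over 3 editors had the editor as an additive term, and all others came from 6 group means over 18 libraries (biological coefficient of variation 3.1%). A gene passed at an adjusted p under 0.05, and the fold threshold was an absolute log2 change of 0.5. Steps were tested on simulated data. Alternatives were DESeq2 1.42.0, its size factors, other filters, a replicate block, fits on fewer groups and each library left out.

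Members and lists were chosen with earlier results of these data known. Named genes were the members, NRF1, neighbours starting within 1000 bases on the other strand, 5 genes most like and 3 least like IFT122, and up to 3 genes per list with the smallest p. KIF3B, HSPB11, DYNLL1, KIF2A, TTLL5 and AC079594.2 were named after their values were seen. Marker lists were HEK293T, multiciliated, blood and fibroblast. The labels do not tie replicates to separate cultures, and p-values therefore cover a spread that may be technical. All replicate pairs differed beyond sampling noise. Same-numbered SpABE libraries deviated together (correlations 0.171, 0.138 and 0.137 over 8205 genes), a pairing that comes from the data and not the labels. With SaABE, libraries numbered 1 and those numbered 2 deviated against each other (-0.413 and -0.378). There, intergenic library 1 went with NRF1-guide library 2 (0.398), and intergenic library 2 with NRF1-guide library 1 (0.37). The replicate block matched libraries by number and did not follow this SaABE pattern, so calls lost with it are hard to read. The block changed no SpABE call of a member.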

Additional observations from a re-analysis of the deposited data

Results flagged for a closer look

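The response to the NRF1 guide differed between editors for 3 members by a test of the difference itself (edgeR, adjusted over all genes). Where NRF1 guide or splice site differed between editors, these cannot be told apart from the editor. The effect on IFT80 was higher with SaABE than with SpABE by 0.31 ± 0.08 on the log2 scale (adjusted p = 0.0101), and it stayed between 0.24 and 0.37 when single libraries were left out. The effect on TTC21B was lower with SaABE than with SpABE (-0.29 ± 0.07, adjusted p = 0.0129) and than with SpCBE (-0.28 ± 0.07, adjusted p = 0.033). The second of these was lost under the replicate block (adjusted p = 0.0523) and without any of 6 single libraries. The effect on WDR35 differed by 0.21 ± 0.06 between SaABE and SpABE (adjusted p = 0.025) and was lost without any of 7 single libraries (adjusted p 0.0507 to 0.0753).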

How the results depend on the processing

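Over the 3 editors the falls of WDR35, IFT172 and WDR19 passed under every alternative run, and IFT122 stayed between 1.04 and 1.07 when single libraries were left out. Without the editor term 3451 genes passed, against 6994. Without single libraries 6594 to 6960 passed, and 3 to 4 of the 9 members.

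Numbers of genes past the adjusted p for the difference between SaABE and SpCBE effects were 726, 465 with the replicate block and 434 to 1077 without single libraries. Members passing there were 1, 0 with the replicate block and 0 to 2 without single libraries. Between SpABE and SpCBE effects 1 member passed with a minimum of 1 CPM in 9 libraries and 0 to 1 without single libraries, against 0. Among SaABE and SpCBE controls 4 members passed, 2 by DESeq2, without the filter and on intergenic-guide libraries alone, and 2 to 4 without single libraries. Among SpABE and SpCBE controls 2 members passed, 1 without the filter and on intergenic-guide libraries alone, and 1 to 2 without single libraries. The causes were not tested.

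By longest transcript the control levels in CPM per kilobase became 4.27 for IFT122, 3.97 for IFT140, 10.3 for IFT43, 4.12 for WDR19, 6.33 for WDR35, 2.23 for TTC21B, 3.12 for IFT88, 4.78 for IFT172, 23.9 for IFT52 and 8.99 for IFT80. Signs turned in 4 values near 0. IFT43 with SaABE was 0.003 with DESeq2 size factors, 0.002 by DESeq2 and -0.049 to 0.041 without single libraries. IFT80 with SpCBE was -0.01 on that editor alone and -0.039 to 0.067 without single libraries, IFT140 with SaABE -0.012 to 0.062, and SMC4 over the editors -0.032 to 0.008. IFT88, the member with the fewest counts, had the widest standard error over the 3 editors (0.05).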

Other observations

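Among intergenic controls the wider IFT-B list differed between editors. Of its 13 genes, 5 were higher and 7 lower in SaABE than in SpABE controls, where 38.4% of all genes tested passed. TTC30A, a subunit of IFT-B1, differed by -0.54 ± 0.09 on the log2 scale (adjusted p = 5.62e-05), and it was the one gene of the list past the fold threshold. Of 10 dynein-2 genes, 5 were higher and 4 lower in SaABE than in SpCBE controls, where 40.6% of all genes passed. SaABE differed from the others in nickase and in intergenic guide, which cannot be told apart. In the marker lists, beside 39.4% of all genes tested over the 3 editors, the NRF1 guide changed 2 of 6 tested HEK293T markers (KRT8 and NEFL, lower), 0 of 4 multiciliated (0 also at an unadjusted p under 0.05 by edgeR), 2 of 3 blood (CD14 higher, CD68 lower) and 1 of 5 fibroblast markers (COL1A1, lower), and their part in the members' values was not tested.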
